A study of Mus musculus with 6 samples.

Results

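Endothelin, natriuretic peptides and prostaglandins are signals known to set the tone and permeability of glomerular capillaries, and 9 genes of these systems were followed in RNA of mouse glomeruli: Edn1, Ednra, Ednrb and Ece1 of the endothelin system, Npr1 and Npr3 of the natriuretic peptide system, and Ptgs1, Ptgs2 and Ptger4 of the prostaglandin system. They were found among 27179 features by matching NCBI Gene identifiers to symbols, and all 9 were present and passed the filter for testing, a mean of at least 10 normalised counts over the libraries (13946 features passed). The table holds RNA-seq of whole glomeruli of 9-week-old male mice, collected by way of a magnetic bead perfusion; the mice were of a mixed C57BL/6 strain and are described as mildly proteinuric. The 3 KO libraries were from Parva-fl/fl*hNPHS2Cre mice: both Parva alleles were floxed, and a transgene with the human podocin promoter drove Cre, which targets podocytes and not the endothelial or mesangial cells of the same glomeruli. The 3 WT libraries were from Parva-fl/fl mice with no Cre in their genotype, so the floxed alleles were common to both groups. Parva encodes alpha-parvin, which links integrin-linked kinase to actin.

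Endothelin-1 is cut from a larger precursor by endothelin-converting enzyme and acts on a pair of G protein-coupled receptors, the A type, known for contraction of mesangial and smooth muscle cells, and the B type, which on endothelium releases nitric oxide and prostacyclin and clears the peptide. Natriuretic peptides from the heart bind the guanylyl cyclase NPR-A, encoded by Npr1, which makes cyclic GMP, whereas NPR-C, encoded by Npr3, lacks the cyclase and takes the peptides up for degradation. Prostaglandins are made from arachidonate by the cyclooxygenases of Ptgs1 and Ptgs2, and prostaglandin E2 acts on EP receptors, among them the EP4 receptor of Ptger4, which raises cyclic AMP.

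Promoter windows (250 bases before to 50 after an annotated start) are printed for the 4 genes that were lower in KO, Ednra, Npr1, Ptger4 and Ece1, and for Ednrb, the other endothelin receptor, whose level did not follow that of Ednra. They come from RefSeq on GRCm38.p6, the mm10 assembly, where each of the 9 genes had at least 1 window. Of the 4 windows of Ece1 the most upstream is shown. Capitals mark matches, on either strand, to a set of 7 short motifs: the GC box GGGCGG, the TATA box TATAAA, the AP-1 site TGANTCA, the cyclic AMP response core TGACGT, the TEAD site GGAATG, the GATA site AGATAA and the ETS core CCGGAAG.
Ednra, chr8:77724403-77724702, minus strand: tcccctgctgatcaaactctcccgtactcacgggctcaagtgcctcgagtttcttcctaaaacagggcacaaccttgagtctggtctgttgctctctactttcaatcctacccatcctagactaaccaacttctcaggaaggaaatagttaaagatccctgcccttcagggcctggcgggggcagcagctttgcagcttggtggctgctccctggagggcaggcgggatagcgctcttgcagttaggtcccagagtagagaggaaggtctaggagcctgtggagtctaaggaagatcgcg
Ednrb, chr14:103843652-103843951, minus strand: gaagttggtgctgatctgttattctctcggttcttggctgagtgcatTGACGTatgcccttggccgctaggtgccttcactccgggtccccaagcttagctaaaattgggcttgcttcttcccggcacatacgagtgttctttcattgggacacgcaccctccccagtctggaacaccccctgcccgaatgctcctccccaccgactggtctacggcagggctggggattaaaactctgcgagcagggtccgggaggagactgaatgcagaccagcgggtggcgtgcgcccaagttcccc
Npr1, chr3:90465817-90466116, minus strand: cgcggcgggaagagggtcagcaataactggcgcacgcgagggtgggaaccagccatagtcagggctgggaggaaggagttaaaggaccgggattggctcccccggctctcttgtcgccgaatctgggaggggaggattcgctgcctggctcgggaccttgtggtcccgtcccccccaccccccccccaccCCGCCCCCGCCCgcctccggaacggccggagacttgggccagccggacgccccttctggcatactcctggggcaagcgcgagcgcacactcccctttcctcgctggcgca
Ptger4, chr15:5244138-5244437, minus strand: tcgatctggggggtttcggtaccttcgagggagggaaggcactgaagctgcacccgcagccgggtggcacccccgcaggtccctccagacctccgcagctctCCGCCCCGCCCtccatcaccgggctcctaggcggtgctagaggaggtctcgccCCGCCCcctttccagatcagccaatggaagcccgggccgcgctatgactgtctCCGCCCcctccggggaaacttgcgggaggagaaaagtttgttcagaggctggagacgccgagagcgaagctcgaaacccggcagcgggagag
Ece1, chr4:137861987-137862286, plus strand: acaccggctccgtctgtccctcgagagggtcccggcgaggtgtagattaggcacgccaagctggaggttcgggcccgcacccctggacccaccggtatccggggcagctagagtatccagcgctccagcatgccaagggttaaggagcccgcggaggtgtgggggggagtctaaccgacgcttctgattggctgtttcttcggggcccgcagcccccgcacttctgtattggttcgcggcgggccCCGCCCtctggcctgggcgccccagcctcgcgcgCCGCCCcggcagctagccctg
The window of Ednra held none of these letters. Ednrb held 1 cyclic AMP response core, a motif found in 7.51% of the 32851 windows of this length. GC boxes, present in 35.7% of all windows, were found 2 times in Npr1, 4 times in Ptger4, where a pair overlaps by 1 base, and 2 times in the window of Ece1. The GC content was 54.7% in Ednra, 58.7% in Ednrb, 69.7% in Npr1, 67% in Ptger4 and 69.3% in Ece1, against a median of 52.7% over all windows.

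The libraries held 11886828 to 20552984 whole reads. Values per library are given in the order of the replicate numbers, WT first. Parva, the targeted gene, had 6585, 7520 and 7890 normalised counts in WT against 2288, 2338 and 1942 in KO, with no overlap. Markers of the expected cells were present throughout, with summed levels of 14 podocyte markers at 263213 to 323421 normalised counts in WT and 184702 to 259815 in KO. Cell type markers moved with genotype. Of 14 proximal tubule markers 13 rose, from summed levels of 88860.1 to 193050 in WT to 214819 to 347957 in KO, 11 of 14 glomerular endothelial markers fell (68524 to 83761.8 in WT, 46133.3 to 57134 in KO), 8 of 11 mesangial markers fell (46830.9 to 59465.1 against 31542.3 to 38378.8) and 6 of 14 podocyte markers fell. None of these markers was at 0 in any library. Of 7 tested smooth muscle and renin markers 3 fell and 1 rose (4002 to 4870 in WT, 3246 to 5797 in KO). Of 8 collecting duct markers 3 rose in limma (1578 to 4326 against 3958 to 5947), none in edgeR and 5 in DESeq2. At an unadjusted p below 0.05 in limma 7 of these 8 were higher. WT-1 had the highest tubule marker sum of the WT libraries. Within the WT group Ednra, Npr1, Ptger4 and Ece1 were each lowest in WT-1. The part of the marker shifts in the results was not tested. Covariate fits and ratios to markers are given as descriptions. The covariate, the mean log2 level of the proximal tubule markers, was 12.4, 11.3 and 11.3 in WT and 12.8, 13.4 and 13.3 in KO. It did not overlap between genotypes, so those fits cannot tell tubule content from genotype. In RNA of whole glomeruli, fewer cells of a type and less RNA per cell cannot be told apart.

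The endothelin A receptor Ednra, the cyclase receptor Npr1, the EP4 receptor Ptger4 and the converting enzyme Ece1 were lower in KO, past an adjusted p of 0.05. The other 5 genes did not pass, and none was called higher by limma, edgeR or DESeq2, nor at an unadjusted p below 0.05. Thus 4 of 9 fell, where limma called 8.58% of all genes tested lower in KO and 13.5% higher. The median log2 fold change of the 9 was -0.38, against -0.0064 over all genes tested. All KO libraries lay below all WT libraries in 5 of the 9, the same 4 genes and Ptgs1, an arrangement found in 21.9% of the genes tested. In none of the 9 did all KO libraries lie above, the arrangement of 23.2% of the genes tested. edgeR's quasi-likelihood test and DESeq2 on the recovered whole reads called 4 of 9 as well, with 8.25% and 10.5% of all genes called lower and 12.1% and 16.8% higher. The count of 4 was 0 in limma when any of WT-2, WT-3, KO-2 and KO-3 was left out, in limma without the variance trend and where limma took the mean of the proximal tubule markers as a covariate. In these fits except that with the covariate, all 4 genes were below an unadjusted p of 0.05. With the covariate 0 of the 4 were, and of the 9 Ednrb alone was, with a higher KO level.

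**Figure D1:**
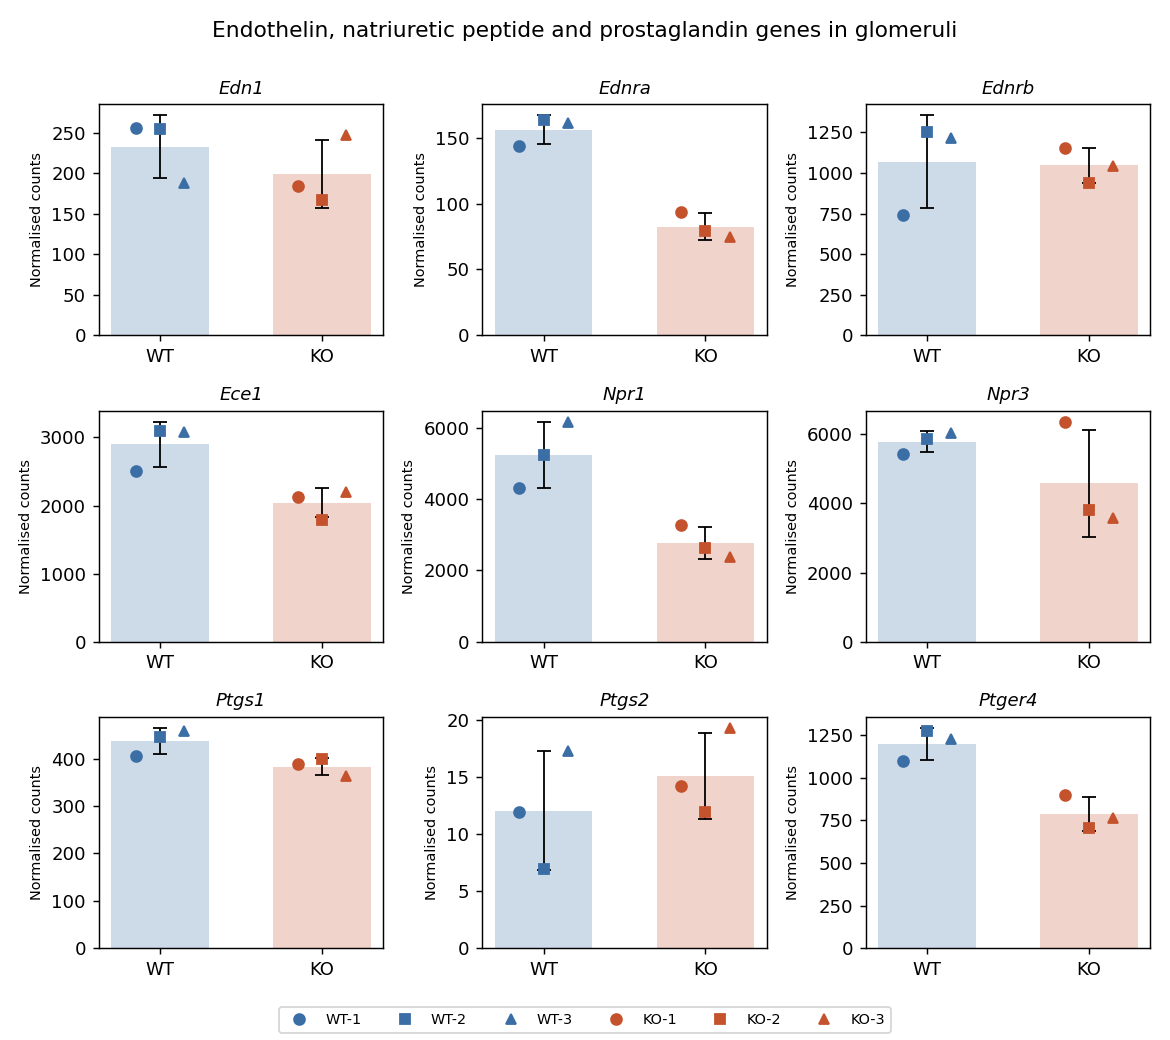
Normalised counts of the 9 genes (y axes, each from 0) in the WT and KO libraries, with bars at the group mean, error bars of 1 SD (n = 3) and a point per library. The KO points of Ednra, Ece1, Npr1, Ptgs1 and Ptger4 all lie below the WT points, and the groups overlap in Edn1, Ednrb, Npr3 and Ptgs2.

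In the endothelin system the A receptor and the converting enzyme were lower, while the B receptor and the ligand overlapped between genotypes. Ednra (NCBI Gene 13617; chromosome 8, 77663029 to 77724452 in RefSeq on GRCm38.p6, as for the positions that follow) had 143, 163 and 161 normalised counts in WT against 93.9, 79 and 74.8 in KO. Every KO library lay well under the lowest WT library. The mean fell from 156 ± 11 to 82.6 ± 10 (SD, n = 3), to 52.9% of the WT mean, and limma gave -0.91 as log2 fold change (SE 0.15, adjusted p = 0.0286). It is a low gene here, with 66 to 196 whole reads per library. Without WT-2, WT-3, KO-2 and KO-3 in turn, the limma adjusted p of Ednra was 0.107, 0.106, 0.109 and 0.0696, at log2 fold changes of -0.88, -0.89, -0.89 and -0.85. The covariate of tubule markers brought it to -0.57.

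Ednrb (NCBI Gene 13618; chromosome 14, 103814615 to 103844508) stood at 742, 1255 and 1212 normalised counts in the WT libraries and at 1154, 941 and 1044 in the KO libraries. WT-1 was the lowest library of all and WT-2 the highest, so that the KO libraries lay inside the WT range. The means were 1070 ± 285 in WT and 1047 ± 107 in KO (SD, n = 3), a log2 fold change of 0.0023 with a 95% interval from -0.48 to 0.48 (limma adjusted p = 0.994). The value rests on WT-1, without which it was -0.24 (limma adjusted p = 0.145). Its sign also turned with the scaling, at -0.0051 with TMM and -0.058 with the upper quartile. With the tubule covariate it was 0.92, below an unadjusted p of 0.05 (limma adjusted p = 0.995).

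Ece1 (NCBI Gene 230857; chromosome 4, 137862237 to 137965229), the converting enzyme, stood at 2514, 3099 and 3079 normalised counts in WT and at 2129, 1794 and 2198 in KO. The highest KO library was below the lowest WT library, WT-1, by a smaller margin than in Ednra. Its mean fell from 2897 ± 332 to 2040.2 ± 216 (SD, n = 3), or -0.50 on the log2 scale (SE 0.12, limma adjusted p = 0.0339). This call was lost without WT-2, WT-3, KO-1, KO-2 and KO-3 (limma adjusted p = 0.121, 0.119, 0.0557, 0.117 and 0.0704), at log2 fold changes of -0.45, -0.46, -0.54, -0.41 and -0.56, and the log2 fold change was -0.12 with the tubule covariate. Edn1 (NCBI Gene 13614; chromosome 13, 42301476 to 42307990), the ligand, stood at 256, 254 and 188 normalised counts in WT and at 184, 167 and 247 in KO. KO-3 reached the level of WT-1 and WT-2, and WT-3 that of KO-1. The log2 fold change was -0.23 with a 95% interval from -0.69 to 0.23 (limma adjusted p = 0.412). It was -0.11 without KO-2, -0.38 without WT-3 and -0.39 without KO-3.

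Among the natriuretic peptide receptors the cyclase receptor fell, and the clearance receptor was uneven among the KO libraries. Npr1 (NCBI Gene 18160; chromosome 3, 90450591 to 90465928) had 4300, 5245 and 6166 normalised counts in WT against 3261, 2638 and 2384 in KO. The groups were apart, and each spread about as widely as the other in proportion, the highest library being 1.43 times the lowest in WT and 1.37 times in KO. The mean fell from 5237 ± 933 to 2761 ± 452 (SD, n = 3), to 52.7% of the WT mean, with a log2 fold change of -0.92 in limma (SE 0.17, adjusted p = 0.0286). Of all genes tested, 2.22% had a log2 fold change below this value. Without WT-2, WT-3, KO-2 and KO-3 in turn, the limma adjusted p of Npr1 was 0.107, 0.106, 0.109 and 0.0696, at log2 fold changes of -0.91, -0.79, -0.89 and -0.82, and with the tubule covariate the log2 fold change was -0.28.

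Npr3 (NCBI Gene 18162; chromosome 15, 11839896 to 11907837) stood at 5444, 5876 and 6029 normalised counts in WT and at 6365, 3798 and 3594 in KO. KO-1 was the highest of the libraries, above every WT library, whereas KO-2 and KO-3 were the lowest. The means were 5783 ± 304 in WT and 4585 ± 1544 in KO (SD, n = 3), a log2 fold change of -0.38 with a 95% interval from -0.89 to 0.12 (limma adjusted p = 0.222). Single KO libraries decide this value: without KO-1 the log2 fold change was -0.64 (limma adjusted p = 0.0439; edgeR without KO-1 adjusted p = 0.049), without KO-3 it was -0.23, and with the tubule covariate its sign turned, to 0.18. The summed podocyte markers were likewise higher in KO-1, at 259815, than in KO-2 and KO-3, at 201097 and 184702. So were the mesangial markers, at 38378.8 against 31542.3 and 33453.3. The endothelial markers were highest of the KO libraries in KO-3. The part of these markers in the level of Npr3 was not tested beyond the ratios given below.

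In the prostaglandin system the EP4 receptor was lower, and neither cyclooxygenase passed the test. Ptger4 (NCBI Gene 19219; chromosome 15, 5233399 to 5244187) stood at 1097, 1274 and 1231 normalised counts in WT and at 898, 706 and 763 in KO. All KO libraries were lower than WT-1, the lowest WT library. The mean fell from 1201 ± 92.2 to 789 ± 98.8 (SD, n = 3), to 65.7% of the WT mean, or -0.61 on the log2 scale (SE 0.12, limma adjusted p = 0.0286). Without WT-2, WT-3, KO-2 and KO-3 in turn, the limma adjusted p of Ptger4 was 0.107, 0.106, 0.109 and 0.0696, at log2 fold changes of -0.57, -0.59, -0.53 and -0.59, and with the tubule covariate the log2 fold change was -0.24.

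Ptgs1 (NCBI Gene 19224; chromosome 2, 36216742 to 36258593), the constitutive cyclooxygenase, was the steadiest of the 9 genes, at 406, 446 and 458 normalised counts in WT and at 388, 398 and 363 in KO. The KO libraries lay just under the WT libraries. The highest library was 1.26 times the lowest, and the log2 fold change was -0.19 with a 95% interval from -0.42 to 0.039 (limma adjusted p = 0.188). Ptgs2 (NCBI Gene 19225; chromosome 1, 150100031 to 150108234), the inducible cyclooxygenase, was near the detection limit, at 11.9, 6.93 and 17.3 normalised counts in WT and at 14.2, 11.9 and 19.3 in KO. These are 7 to 21 whole reads per library. The groups overlapped, and the log2 fold change of 0.36 had a 95% interval from -0.64 to 1.36 (limma adjusted p = 0.56), so that at this depth neither a decrease nor a rise to 256% of the WT level lay outside the interval. Without WT-2, WT-3 and KO-3 in turn the value was 0.042, 0.64 and 0.18. Ptgs2 is known for its expression in the macula densa, beside the glomerulus. Markers of the thick limb, macula densa and distal tubule were at summed levels of 9526.84 to 33212.6 normalised counts in WT and 31419 to 68811.2 in KO, with 0 of 7 tested past limma's or edgeR's threshold, 2 higher in DESeq2 and 5 at an unadjusted p below 0.05 in limma, and Nos1, the macula densa marker of that list, was at 0 in every WT library and at most at 1.77 in KO; their part in the level of Ptgs2 was not tested.

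Per kilobase of exon (the union of exons in GENCODE M21), the order of the WT levels was Npr1, Npr3, Ece1, Ednrb, Ptger4, Ptgs1, Edn1, Ednra and Ptgs2. The WT means were 1095 normalised counts per kilobase for Npr1, 616 for Npr3, 547 for Ece1, 251 for Ednrb, 181 for Ptger4, 113 for Ptgs1, 109 for Edn1, 28.5 for Ednra and 2.63 for Ptgs2. The WT ranges overlapped between Npr3 and Ece1 (580 to 642 against 474 to 585), between Ednrb and Ptger4 (174 to 294 against 165 to 192) and between Ptgs1 and Edn1 (105 to 118 against 88.1 to 120). The other neighbours in this order did not overlap. In KO, Npr1 at 577 and Npr3 at 488 overlapped as well, with ranges of 498 to 682 and 383 to 678. So did Npr3 and Ece1 in KO, the latter at 339 to 415.

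Each gene was also set beside markers of glomerular cells in the same library, a ratio in which the scaling of the libraries cancels, but for the pseudocount. The level of Ednra, on the log2 scale and relative to the mean of 11 mesangial markers, was -4.55, -4.67 and -4.71 in WT and -4.75, -4.79 and -4.95 in KO. The KO libraries remained below the WT libraries, by 0.19 on average, against 0.91 without the reference to markers. Relative to podocyte and endothelial markers the difference was -0.40 and -0.30, again without overlap. KO-3 decides much of the endothelial value, which was -0.15 without it. Each had an exact two-sided permutation p of 0.1, the smallest that 3 against 3 libraries allow.

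Npr1 relative to 14 podocyte markers was -1.32, -1.30 and -1.09 in WT and -1.63, -1.61 and -1.67 in KO, a difference of -0.41 without overlap (exact permutation p = 0.1). Relative to endothelial and mesangial markers it overlapped, at differences of -0.30 and -0.20 (exact permutation p = 0.3 for each), or -0.12 and -0.10 without KO-3 and, against mesangial markers, -0.13 with WT-3 left out. Ptger4 overlapped relative to each of the 3 lists, at -0.09 for podocyte, 0.01 for endothelial and 0.11 for mesangial markers (exact permutation p = 0.3, 0.9 and 0.2). Ece1 relative to endothelial markers was -0.42, -0.39 and -0.36 in WT and -0.23, -0.27 and -0.33 in KO. The ratio was slightly higher in KO than in WT, by 0.11 (exact permutation p = 0.1). Ece1 stayed below the mean of those markers in every library. Against mesangial markers the difference was 0.22, without overlap, and against podocyte markers it was 0.011, with overlap (exact permutation p = 0.1 and 1).

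The ratios of Ednrb, Ptgs1 and Ptgs2 to the same markers were higher in KO. The markers themselves were lower in KO, at median log2 fold changes of -0.60 (podocyte), -0.64 (endothelial) and -0.78 (mesangial). A gene of unchanged level therefore has a higher ratio in KO. The share of all genes with such ratios was not counted. Ednrb relative to 14 endothelial markers was -2.18, -1.69 and -1.71 in WT and -1.11, -1.20 and -1.41 in KO. All KO libraries were above all WT libraries, by 0.62 on average (exact permutation p = 0.1). The difference was 0.52 against podocyte and 0.73 against mesangial markers, without overlap. Ptgs1 was higher by 0.33, 0.43 and 0.54 relative to podocyte, endothelial and mesangial markers, again without overlap (exact permutation p = 0.1 for each). Ptgs2, at its few reads, was higher by 0.88, 0.98 and 1.08, without overlap, but by 0.52, 0.61 and 0.72 without WT-2. Npr3 relative to podocyte markers was -0.98, -1.14 and -1.12 in WT and -0.67, -1.09 and -1.08 in KO. Its KO-2 and KO-3 values, which were the lowest as normalised counts, lay within the WT range on this scale, but not on the others. Relative to endothelial markers Npr3 was 0.69, 0.53 and 0.60 in WT and 1.35, 0.81 and 0.37 in KO. There KO-2 lay above the WT range and KO-3 below it. Against mesangial markers KO-2, at 0.77, lay above the WT range of 0.49 to 0.69, and KO-3, at 0.62, within it.

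**Figure D2:**
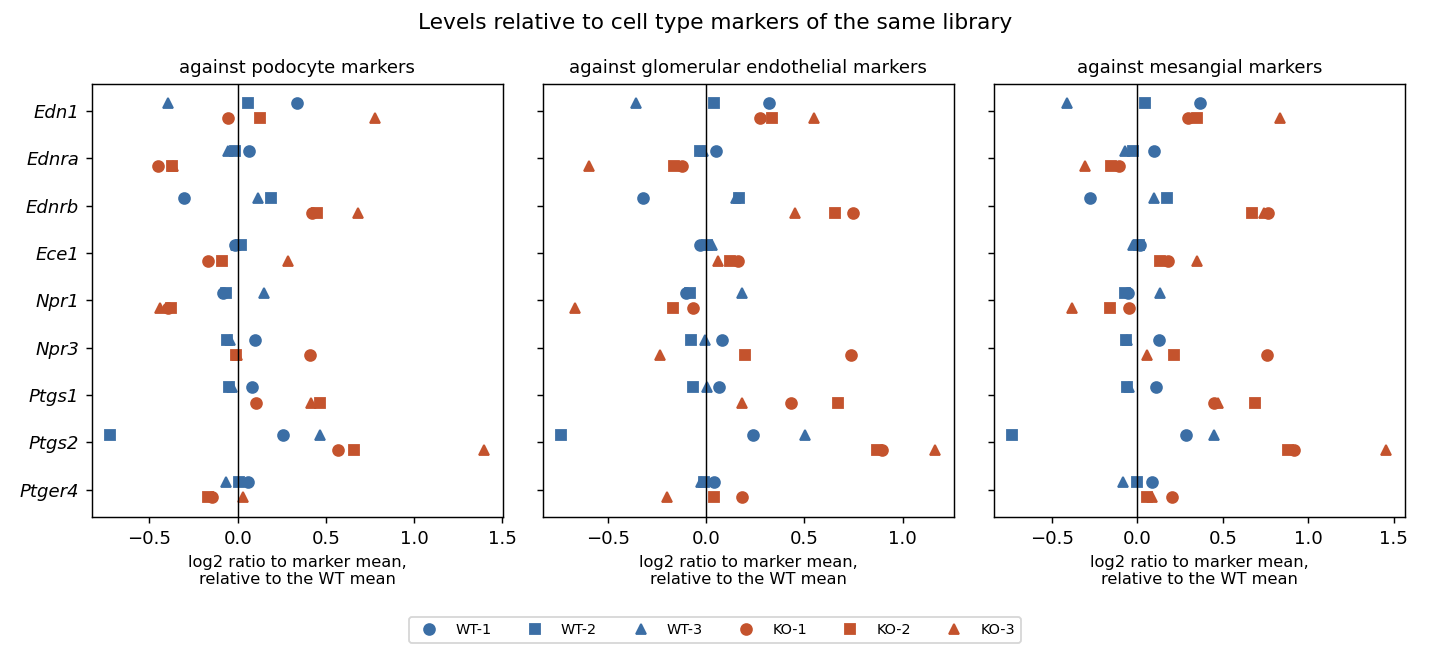
Level of each gene relative to the mean of podocyte, glomerular endothelial or mesangial markers of the same library (x axes, log2 ratio with the WT mean set to 0), a point per library. Ednra lies left of WT in every panel and Ednrb and Ptgs1 lie right of it, whereas Ptger4 overlaps with WT in every panel. The mean of each marker list was lower in KO, which moves the KO points to the right.

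The receptor balance within a library, compared per exon length, was chosen for description after the values were seen. The denominators Ednra, Npr1 and Ptger2 were called lower in KO and had lower log2 fold changes than their numerators. The direction of these ratios therefore restates those fold changes. The share of all gene pairs with such ratios was not counted. The ratio of Ednrb to Ednra was 6.64, 9.86 and 9.65 in WT against 15.8, 15.3 and 17.9 in KO. Each KO library was above each WT library, and the mean went from 8.72 ± 1.8 to 16.3 ± 1.4 (SD, n = 3). The ratio of Npr3 to Npr1, the clearance receptor to the cyclase receptor, was 0.645, 0.571 and 0.498 in WT and 0.994, 0.734 and 0.768 in KO. It too did not overlap, with the highest value in KO-1. The ratio of Ptger4 to Ptger2, both receptors for prostaglandin E2 that raise cyclic AMP, was 11.3, 8.98 and 9.5 in WT and 18.4, 14.6 and 19.5 in KO, without overlap. For Ptgs1 to Ptgs2 the groups overlapped, at 31.3 to 76 in WT and 22.2 to 39.4 in KO.

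**Figure D3:**
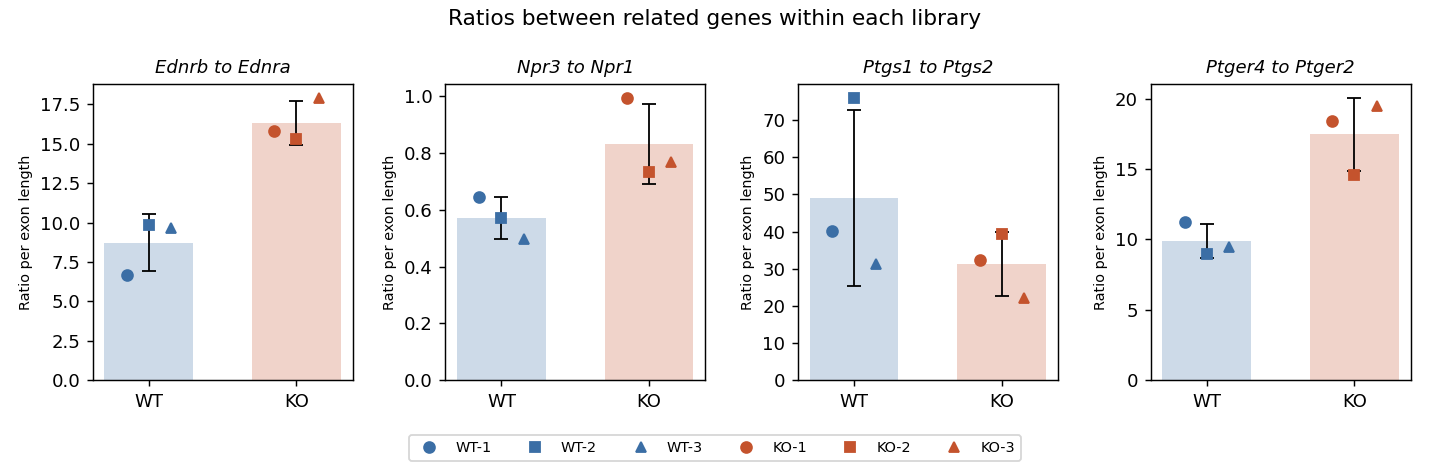
Ratio of related genes within each library, per exon length (y axes from 0, no unit), with bars at the group mean, error bars of 1 SD (n = 3) and a point per library. The ratios of Ednrb to Ednra, Npr3 to Npr1 and Ptger4 to Ptger2 are higher in all KO libraries, and that of Ptgs1 to Ptgs2 overlaps. The denominators Ednra, Npr1 and Ptger2 were themselves called lower in KO.

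Further genes of these pathways were read from 7 lists of 50 genes, of which 42 had enough counts to be tested. In KO 10 fell, 5 rose and 27 did not pass, that is 23.8% lower and 11.9% higher, against 8.58% and 13.5% of all genes tested, with a median log2 fold change of -0.17. The share that rose was no higher than that of all genes. The counts of 10 and 5 were 14 and 9 without WT-1, and 0 and 0 without WT-2, WT-3, KO-2 or KO-3. edgeR called 10 and 5 of these genes, but 6 and 2 without KO-1.

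Of the 3 tested genes among endothelin ligands, processing and clearance, 0 passed in limma, edgeR or DESeq2, or at an unadjusted p below 0.05. Edn2 was at most at 5.41 normalised counts, and Edn3, named after its values were seen, stood at 26.7 to 47.8 in WT and 29.5 to 57.6 in KO. Ece2, another converting enzyme, averaged 40.2 ± 4.86 normalised counts in the WT and 55.9 ± 16.2 in the KO libraries (SD, n = 3), with a limma adjusted p of 0.246. Of 9 genes by which endothelin receptors couple to the cell, 3 fell and 6 did not pass. Arrb1, a beta-arrestin that desensitises receptors, stood at 2947, 3445 and 3572 normalised counts in WT and at 2323, 1959 and 1761 in KO. It fell by 0.73 on the log2 scale (SE 0.13, limma adjusted p = 0.0286). Plcb3, a phospholipase C activated by Gq, fell from 1379 ± 163 to 965 ± 19.4, and Gnaq, the Gq alpha subunit, from 2064 ± 264 to 1443 ± 147 (SD, n = 3). With the tubule covariate the log2 fold changes of Arrb1, Plcb3 and Gnaq went from -0.73, -0.51 and -0.51 to -0.28, -0.16 and -0.33.

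The natriuretic hormones were hardly detected, while 4 of 8 genes of cyclic GMP signalling and breakdown were lower. Nppc was at 0 in every library, and Nppa and Nppb were at 0 in all but KO-3, where they were at 2.27 and 3.4 normalised counts, at or below the 3 reads taken as the counting floor. Furin, a protease that processes natriuretic peptide precursors among many others, rose from 1511 ± 194 to 2093 ± 165, and Ide, which degrades insulin and natriuretic peptides, from 584 ± 57.4 to 784 ± 31.1 (SD, n = 3; limma adjusted p = 0.0339 and 0.0305). Both were highest in WT-1 within the WT group, whereas Gucy1a1, Gucy1b1, Pde2a and Pde5a, described below, were lowest there. The tubule covariate, which cannot tell tubule content from genotype, took the log2 fold changes of Furin and Ide from 0.47 to 0.038 and from 0.43 to 0.12. The other 4 cyclic GMP genes did not pass, and the median log2 fold change of the 8 was -0.63. Gucy1a1, a subunit of the nitric oxide receptor cyclase, stood at 2633, 3845 and 3225 normalised counts in WT and at 1518, 1535 and 1740 in KO. The groups were far apart, and its log2 fold change was the lowest of the 8, with a KO mean at 49.4% of the WT mean (limma adjusted p = 0.0286). Its partner Gucy1b1 fell from 1244 ± 121 to 812 ± 68.3, and the phosphodiesterase Pde2a, which breaks down cyclic nucleotides, from 2411 ± 315 to 1393 ± 268 (SD, n = 3). Pde5a and the kinase Prkg1 were named after their values were seen. Pde5a fell and Prkg1 did not pass (log2 fold change -0.54, limma adjusted p = 0.0687). For Gucy1a1, Gucy1b1, Pde2a and Pde5a the log2 fold changes were -1.003, -0.61, -0.80 and -0.64. The tubule covariate took these to -0.60, -0.25, -0.36 and -0.097, and that of Prkg1 to 0.14.

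Prostaglandin genes moved in both directions. Of 9 tested genes of synthesis 1 rose and 0 fell (1 in DESeq2, 2 at an unadjusted p below 0.05 in limma): Ptges2, a prostaglandin E synthase, went from 305 ± 67.9 to 496 ± 85.9 (SD, n = 3; limma adjusted p = 0.0384). Its WT libraries were at 383, 265 and 267, and its log2 fold change went from 0.71 to -0.028 with the tubule covariate. Pla2g4a, which frees arachidonate, and Ptges, another E synthase, both named after their values were seen, did not pass, Pla2g4a at a log2 fold change of -0.47 (limma adjusted p = 0.0566) and Ptges at 0.86 (0.0843).

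Of 6 tested receptors 2 fell. Ptger2, the EP2 receptor, stood at 76, 111 and 101 normalised counts in WT and at 38.1, 37.9 and 30.6 in KO. Its KO libraries were close together and far under WT, and at -1.40 (SE 0.22, limma adjusted p = 0.0286) its log2 fold change was below that of Ptger4. Tbxa2r, the thromboxane receptor, fell from 941 ± 166 to 550.1 ± 119 (SD, n = 3; limma adjusted p = 0.0357). Ptger3 and Ptgfr, receptors with known tubular expression and named after their values were seen, had higher KO means but overlapped. Ptger3 was at 166, 46.5 and 46.9 in WT and 171, 282 and 103 in KO, WT-1 being close to KO-1, and Ptgfr at 356, 203 and 272 in WT and 525, 956 and 352 in KO (limma adjusted p = 0.14 and 0.0757). Ptgfr was called higher by DESeq2 (adjusted p = 0.0114), and without WT-1 limma called both higher (adjusted p = 0.0108 for Ptger3 and 0.0409 for Ptgfr). With the tubule covariate the log2 fold change of Ptger3 went from 1.24 to -0.77. Those of Ptger2 and Tbxa2r went from -1.40 and -0.78 to -0.81 and -0.11. Of 4 clearance genes, the uptake transporter Slco2a1 fell from 3857 ± 269 to 2599 ± 232, whereas the exporter Abcc4 rose from 354 ± 36.9 to 574 ± 89.5 and the reductase Ptgr1 from 81.8 ± 28.9 to 182 ± 46.2 (SD, n = 3; limma adjusted p = 0.0286, 0.0286 and 0.0347). Of the WT libraries WT-1 had the highest Abcc4 and Ptgr1 and the lowest Slco2a1, Ptger2 and Tbxa2r. With the tubule covariate the log2 fold change of Ptgr1 turned to -0.075, while that of Abcc4 went from 0.69 to 0.26. The log2 fold change of Slco2a1 went from -0.57 to -0.32 with the covariate.

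**Figure D4:**
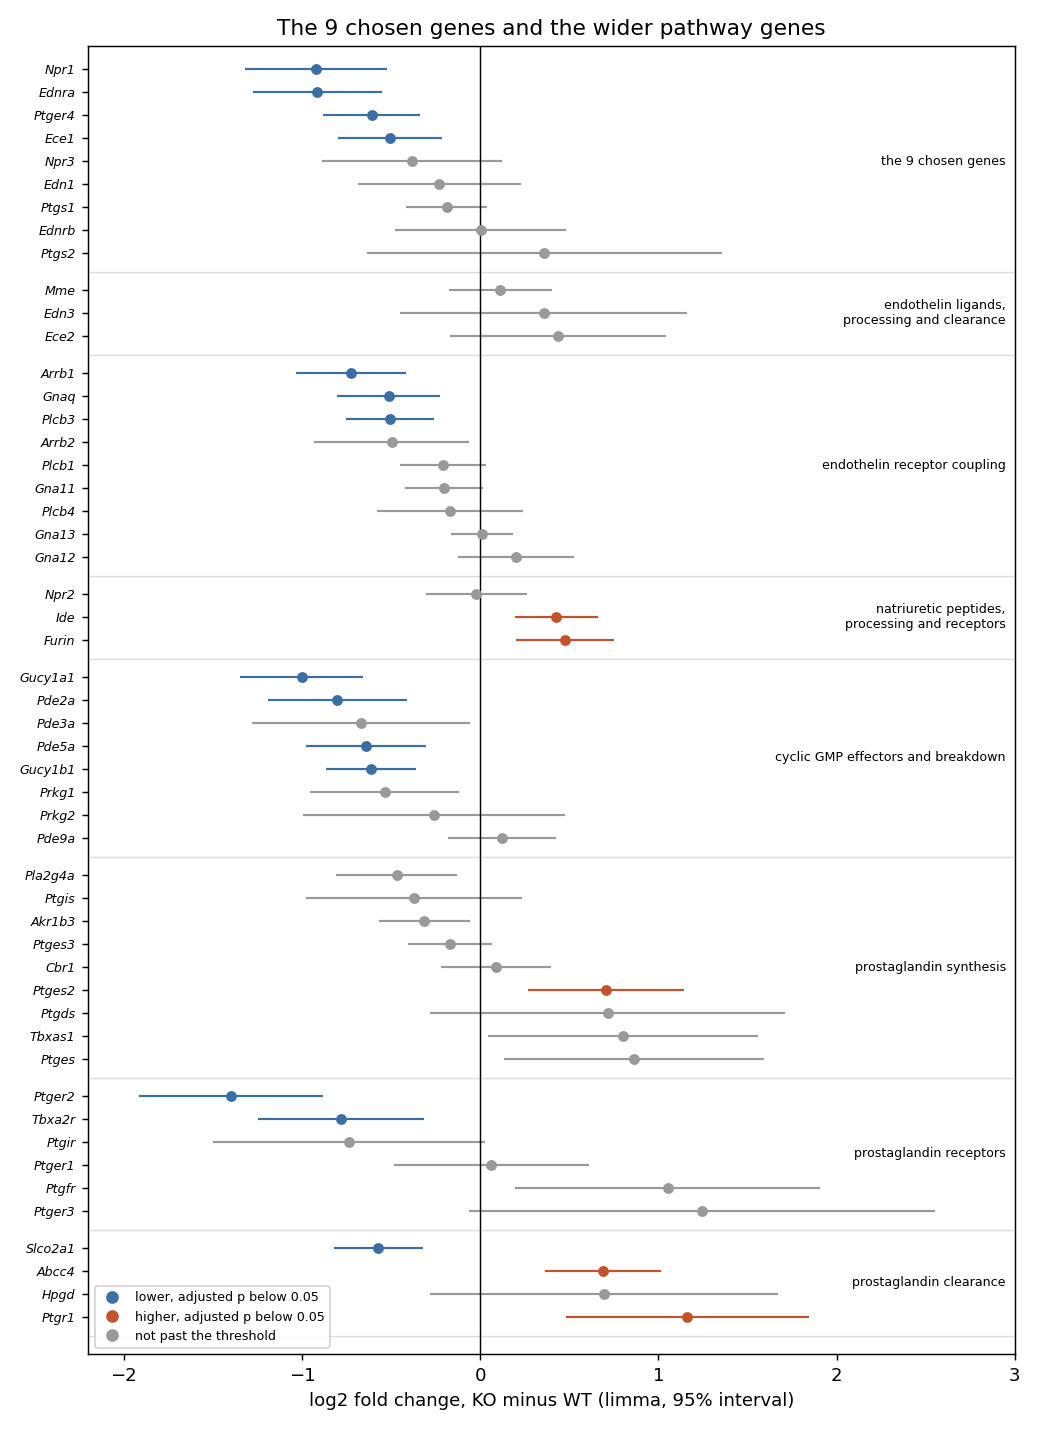
Log2 fold change of KO against WT (x axis, limma estimate with its 95% interval) for the 9 genes and the 42 tested genes of the wider lists, grouped by list. Blue points passed an adjusted p of 0.05 as lower, red points as higher and grey points did not pass. Among the 9 genes Npr1 and Ednra lie lowest, at -0.92 and -0.91.

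The profiles of the 4 lower genes over the 6 libraries were compared with each other and with 11695 named genes by the root mean square distance of centred log2 values, as a description. Ece1 and Ptger4 were the closest pair of the 9, at a distance of 0.104, and Ednra and Npr1 followed at 0.111. Ednra and Ednrb were 0.499 apart. Nearest to Ednra were Foxc2, a transcription factor of podocytes and mesangial cells, at 0.0379, Scd2, a fatty acid desaturase, at 0.0484, and Thrsp at 0.0561. Scd2 was also among the nearest to Npr1, at 0.0707, with Tiam1, an activator of Rac, at 0.0705 and the adhesion molecule Ncam1 at 0.0779. Nearest to Ece1 were Msrb3 (0.0163), the lymphatic and endothelial VEGF receptor Flt4 (0.0192) and the basement membrane gene Nid1 (0.0247), and nearest to Ptger4 were Cnp (0.0223), Clic3 (0.0374) and Armcx1 (0.038). All of these genes were themselves called lower in KO, which follows from choosing them by closeness to genes that were lower. All profiles share the same 6 libraries and their differences in cell makeup.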

How the data were processed

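RNA-seq libraries of glomeruli were compared, 3 KO and 3 WT; groups and replicate numbers come from the sample titles. The deposited table holds featureCounts results, per the file headers. Its name and its values, which are not whole, show normalised counts: a signal in which the authors scaled the reads of each gene to the library's size. Per the submitters' processing notes mm10 was the build, and HISAT2 2.1, bcl2fastq 2.19, featureCounts 1.6.4, cutadapt 1.16.5 and, in a wrapper's numbering, DESeq2 2.11.40.6 were used. Not given in the sources used here are the strand setting, the annotation and the treatment of reads with several hits. RefSeq places noncoding genes over parts of Ednra, Ednrb, Ece1 and Npr3, whose reads could then not be told apart. Of these noncoding genes only Gm5144, over Npr3, was among the features counted, at most at 17 normalised counts. Values of each library were whole multiples of a step (100% at a tolerance of 0.01), which gave whole reads of 11886828 to 20552984; counting floors of 3 reads cover counting error only. The step of WT-2 is close to 1, but its values follow it too.

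The 25275 identifiers found in RefSeq GRCm38.p6 were named. The main test was limma 3.58.1 (R 4.3.3) with a variance trend on log2(normalised count + 1), genotype as its only term, for 13946 genes with a mean of at least 10, with Benjamini-Hochberg adjustment over all of them; tests were two-sided, at 0.05. Fold changes on this scale understate the change of low genes. Single ratios were compared by exact permutation. Alternatives were pseudocounts of 0.5 and 5, other filters, scaling by TMM or upper quartile, count tests of the recovered reads (edgeR 4.0.16, calling 2841 genes, and DESeq2 1.42.0, calling 3810), no trend or a robust prior in limma, a replicate block, a covariate for the mean of proximal tubule markers, and leaving out each library; edgeR without each library was chosen after seeing the data. Named beyond the 9 genes were up to 3 genes past the threshold with the smallest p in each wider list, otherwise the gene with the smallest p, and the 3 nearest profiles of each lower gene; other genes are said to be named after their values were seen. The 9 genes, the lists and the alternatives were chosen with earlier results of these data known. Libraries of a group differed beyond sampling noise, with chi-square values of 23.5 or more times their degrees of freedom. The study's design text compares 3 KO with 3 WT mice, though the labels do not link each library to a mouse. The p-values measure the spread between these samples, which may be partly technical. The steps were tested on simulated data.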

Additional observations from a re-analysis of the deposited data

How the results depend on the processing

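Directions of the 4 lower genes held in every alternative that was run, Ednra at -1.02 to -0.57, Npr1 at -1.06 to -0.28, Ptger4 at -0.71 to -0.24 and Ece1 at -0.60 to -0.12 on the log2 scale, with limma, edgeR or DESeq2 adjusted p from 0.000305, 7.68e-05, 0.000802 and 0.0066 up to 0.9998; the calls did not. Of the 3085 genes called in all, 1 was called in limma without the variance trend (5305 at an unadjusted p below 0.05), 0 with the tubule covariate (363) and 0 with the replicate block (4284). The counts of 4 lower genes of the 9 and of 10 lower and 5 higher wider genes were each 0 in these fits. Leaving out 1 library gave 0 to 4294 genes in limma and 0 to 4307 in edgeR, where 1186 were called without KO-1, with 6 lower and 2 higher wider genes. It gave 0 to 4 of the 9 with either tool, and 0 to 14 lower and 0 to 9 higher wider genes. In limma without KO-1 the 4 were Ednra, Npr1, Ptger4 and Npr3. The cause of the lost calls was not tested. Replicate numbers did not pair the libraries: deviations of WT-1 and KO-1, WT-2 and KO-2, and WT-3 and KO-3 correlated at -0.23, -0.19 and -0.013, so the block result says nothing of a weaker effect.

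Signs turned for Ednrb in edgeR (-0.031) and DESeq2 (-0.030), with TMM (-0.0051) and upper quartile scaling (-0.058) and without single libraries (-0.24 to 0.14 in limma, -0.23 to 0.095 in edgeR, where it was -0.11 without KO-1). With the tubule covariate signs turned for Npr3 (0.18), Ptges2 (-0.028), Ptgr1 (-0.075), Edn3 (-0.10), Ptger3 (-0.77), Ptges (-0.080) and Prkg1 (0.14). Relative to markers, leaving out 1 library moved Ece1 against podocyte markers between -0.13 and 0.099, Npr3 against podocyte markers between -0.0073 and 0.20, Npr3 against endothelial markers between -0.018 and 0.47, and Ptger4 against endothelial markers between -0.080 and 0.11. Depth limits Ptgs2 (7 to 21 reads per library) most. The p-values rest on 3 libraries per genotype.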

Other observations

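Markers of platelets and leukocytes, cells known for cyclooxygenase 1 and thromboxane synthase, were read beside the prostaglandin genes. Of 6 platelet markers 2 had enough counts to be tested. Gp1bb fell, from 35.8, 73.2 and 84 normalised counts in WT to 17.7, 11.9 and 19.3 in KO (limma adjusted p = 0.0286). Itga2b overlapped, at a positive log2 fold change. The summed level of the 6 platelet markers overlapped too, at 131 to 160 in WT and 68.2 to 139 in KO, where KO-3 was highest. Of 9 tested leukocyte markers 0 passed in limma, edgeR or DESeq2 (0, 0 and 1 at an unadjusted p below 0.05), and their summed level, 761 to 1429 normalised counts in WT and 824 to 2001 in KO, was highest in KO-3. Ptgs2, Ptgds and Hpgds, the last a prostaglandin D synthase of mast cells and macrophages, were also highest in KO-3, at 19.3, 113 and 17 normalised counts. For Ptgs2 this order rests on the scaling of few reads, since WT-3 held 21 whole reads and KO-3 17. Hpgds had at most 15 whole reads in a library. Ptgs1, of cyclooxygenase 1, was instead lowest in KO-3, at 363. Tbxas1, of thromboxane synthase, stood at 191 in both KO-2 and KO-3. Hpgds was at 0, 1.98 and 2.47 in WT and at 5.32 and 5.41 in KO-1 and KO-2, too low for the test. These genes were named after their values were seen, and the part of leukocytes in their levels was not tested.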
